A study of Mus musculus with 18 samples.

Results

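Immediate-early-high adult microglia were 121 of the 502 adult brain cells kept here, and of 2820 cells kept in the whole series. They were chosen by a rule on measured values: a well of the adult brain group that received 1 cell, with at least 400 gene UMIs (unique molecular identifiers, each standing for 1 captured mRNA molecule), in which Fos, Jun, Junb, Egr1, Ier2, Btg2, Dusp1 and Zfp36 together held 1.2% or more of the gene UMIs. The cells of the same libraries below 0.6%, 208 in number, were the reference, and the 173 cells between both limits are called intermediate. Since these 8 genes chose the cells, their levels are given as a description only, and they were left out of the library sizes and of every test on single genes. They still count in the UMIs and genes detected per cell.

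The series followed mouse microglia through development by MARS-seq, a plate-based 3' single-cell RNA-seq in which sorted cells are barcoded 1 per well. All libraries came from untreated CX3CR1-GFP+ C57BL/6J reporter mice. Adult brain cells (4 libraries, age not stated beyond adult) and brain cells of embryonic day 18.5 (E18.5, 6 libraries) were sorted with intermediate CD45, intermediate CD11b and GFP. Yolk sac and brain cells of embryonic day 12.5 (E12.5, 4 libraries each) were sorted as positive for all 3 markers. All 4 adult libraries carried the same subject number, and all 6 E18.5 libraries another. The spread between libraries may therefore be technical, every p-value below measures that spread only, and age and subject cannot be told apart. Adult replicates 1 and 2 came from 1 plate, and replicates 3 and 4 from another.

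Immediate-early genes are transcribed within minutes of a stimulus by factors already present in the cell, without new protein synthesis. Fos, Jun and Junb encode subunits of the AP-1 transcription factor, and Egr1 encodes a zinc finger transcription factor. Btg2 (antiproliferative), Dusp1 (a phosphatase of MAP kinases) and Zfp36 (an mRNA-decay factor) damp the same response, and Ier2 encodes a nuclear immediate-early protein. In microglia, the resident macrophages of the brain, this program is known to respond to many stimuli, the handling of tissue among them.

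A classical input to such promoters is the cAMP response element (CRE, TGACGTCA), whose core TGACG also occurs alone. RefSeq promoter windows on GRCm38.p6 were matched by symbol and used for 6 of the 8 genes, with none used for Egr1 and Ier2. A filter by chromosome was applied to the windows of the 8 genes and not to the share over all windows. Egr1 and Ier2 can therefore not be read as genes without a promoter window or without these sites. The counts over the 6 genes and the shares over all windows were not drawn by the same rule, so they are given as a description only. Over the 250 bases before the start site, the full CRE stood in 2 of these 6 genes, Btg2 and Dusp1, against 1.55% of all 32851 windows. The core on either strand, which the full CRE contains, stood in 4 of the 6 against 17.8% of all windows, the other 2 being Fos and Junb. The AP-1 site TGANTCA was in 0 of the 6 windows and in 6.75% of all windows. Windows of 3 genes are shown 5′ to 3′ because they carry these matches for members of the rule, with the core on either strand in capitals, so that a full CRE appears as a run of 8 capitals. They are Fos (chr12:85473640-85473889, plus strand, nearest core starting 66 bases before the start site), Btg2 (chr1:134079156-134079405, minus strand) and Dusp1 (chr17:26508473-26508722, minus strand).
Fos: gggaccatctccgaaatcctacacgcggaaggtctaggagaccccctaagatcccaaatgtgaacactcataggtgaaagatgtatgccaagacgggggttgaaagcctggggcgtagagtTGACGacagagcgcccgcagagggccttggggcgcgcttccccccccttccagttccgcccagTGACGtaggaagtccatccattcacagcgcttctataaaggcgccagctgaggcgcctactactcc
Btg2: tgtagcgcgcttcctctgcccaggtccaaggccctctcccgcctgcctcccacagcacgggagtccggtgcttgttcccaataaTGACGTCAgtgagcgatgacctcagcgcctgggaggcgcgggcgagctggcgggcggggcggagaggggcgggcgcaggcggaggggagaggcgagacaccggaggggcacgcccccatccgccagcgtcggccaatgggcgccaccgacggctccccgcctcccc
Dusp1: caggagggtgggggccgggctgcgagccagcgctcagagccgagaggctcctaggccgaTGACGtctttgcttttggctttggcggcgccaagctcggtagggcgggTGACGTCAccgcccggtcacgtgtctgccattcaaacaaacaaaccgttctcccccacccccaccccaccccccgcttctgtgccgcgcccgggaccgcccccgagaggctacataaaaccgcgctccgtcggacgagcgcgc

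The immediate-early share was continuous from cell to cell. Members had a median of 1.62% (1.2005% to 3.69%), or 9 UMIs of the 8 genes, intermediate cells 0.868% and reference cells 0.367%, with 24 reference cells at 0 UMIs. The 3 members nearest the limit were at 1.2005%, 1.2048% and 1.2066%, and the 3 cells just outside it at 1.1976%, 1.1905% and 1.1881%. The band from 1.2% to 1.3% held 14 cells and the band from 1.1% to 1.2% held 27, so no gap set the members apart. At a median of 546 UMIs per member and 595 per reference cell, 1 UMI is a sizeable step in this share.

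**Figure D1:**
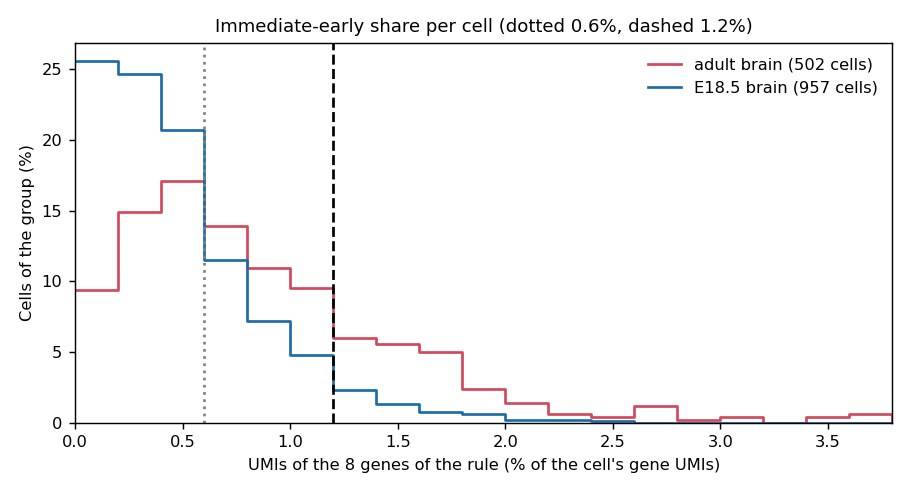
Percent of cells in each 0.2% bin of the immediate-early share (UMIs of the 8 genes of the rule as percent of a cell's gene UMIs) for 502 adult and 957 E18.5 brain cells, with the reference limit dotted and the member limit dashed. The adult curve is highest between 0.4% and 0.6% and tails off to the right with no gap at either limit, and the E18.5 curve is highest in its first bin.

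Members made up 20%, 17.5%, 25.0% and 37.5% of the cells of adult replicates 1 to 4 (28 of 140, 22 of 126, 35 of 140 and 36 of 96), a mean of 25.0% ± 8.91 (SD, n = 4). Exact Clopper-Pearson 95% intervals for single libraries, which cover counting error only, ran from 11.3% to 25.2% in replicate 2, the lowest, and from 27.8% to 48.0% in replicate 4, the highest. Replicate 4 also had the most wells under 400 UMIs, 94 of 190, against 50, 64 and 50 in the others, and the part of this difference in its share was not tested. Within a plate, the left and right columns held similar shares, 18.0% and 19.5% on the plate of replicates 1 and 2, and 27.4% and 32.3% on the other. Rows I to P of the second plate held 35.8% members and rows A to H 24.1%, with overlapping intervals (27.3% to 45.1% and 16.7% to 33.0%). The rule itself sets these shares, so they carry no test.

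At E18.5 the same rule took 53 of 957 cells, 3.82% to 9.21% by library and 5.56% ± 2.07 (SD, n = 6) on average. It took 0 of 705 brain cells at E12.5, which allows a share of 1.62% to 1.79% by library, and 0 of 656 yolk sac cells, which allows 1.75% to 1.92%, limits that cover counting error only. The adult and E18.5 ranges did not overlap. Adult cells were shallower, with a median of 569.5 UMIs against 1000 at E18.5. After each cell was thinned to 400 UMIs the adult shares were 26.4%, 23.02%, 30.7% and 42.7%, and those at E18.5 were 9.17% ± 2.30 (SD, n = 6, highest 12.5%).

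**Figure D2:**
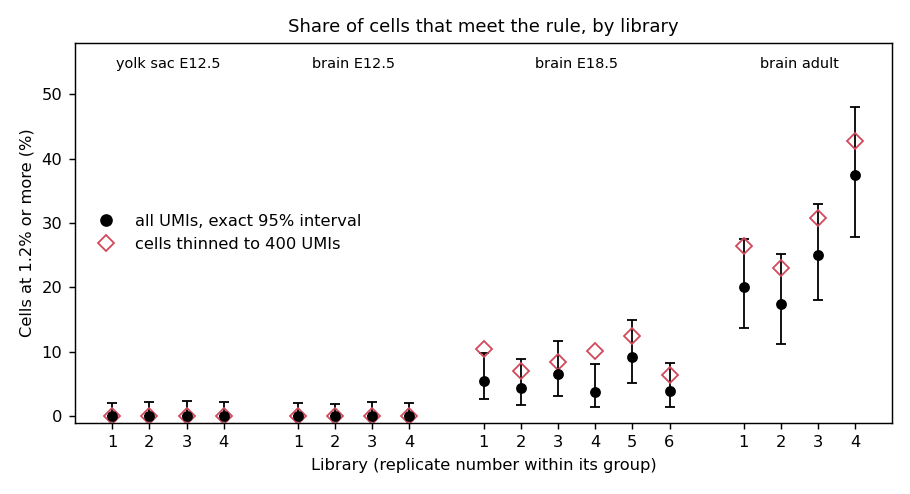
Percent of cells at 1.2% or more in each library of the 4 groups; black points are all UMIs with exact 95% intervals, open red diamonds the same cells thinned to 400 UMIs. All 4 adult libraries lie above all 6 E18.5 libraries on either measure, and both E12.5 groups are at 0.

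Jun was the most abundant gene of the rule in members, giving 30.0% of their 8-gene UMIs, followed by Junb with 19.0% and Fos with 16.4%. A UMI of Jun was seen in 89.3% of members and 49.0% of reference cells, of Fos in 73.6% and 18.8%, and of Egr1 in 38.8% and 8.17%. Members held a median of 4 of the 8 genes (2 to 8). Fos, Jun and Egr1 were all detected in 35 of the 121, and 1 member had none of these 3. All 3 genes that label the class were thus detected in more of the members, but most members had a UMI of only some of them.

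How far the 8 genes vary together was described by leaving each out in turn and choosing cells by the other 7. These values share cells and depth, and the classes were still chosen within the same program, so they carry no test. Levels are given as CPM, counts per 1000000 gene UMIs without the 8 genes, over the summed cells of a class in a library. Fos read 1703, 2585, 2205 and 1713 CPM in cells high for the other 7 genes, and 1007, 391, 1003 and 676 CPM in cells low for them. The Fos values of the high cells lay above all of those of the low cells. Dusp1 had the largest ratio of means, 3.53, and was higher in 4 of 4 libraries, as were Fos (2.67) and Btg2 (1.99). Jun (1.83), Junb (1.81), Egr1 (2.06) and Ier2 (1.82) were higher in 3 of 4, and Zfp36 (2.01) in 2 of 4. Cell by cell, correlations were taken over the 502 cells, thinned to 400 UMIs and centred within library. Of 28 pairs of these genes, 24 had a correlation above 0. The median r was 0.065 and the highest 0.180, for Junb and Btg2. The 8 genes together averaged 3.08 to 4.18 UMIs per thinned cell by library. Counting noise at that depth lowers r, so low values do not show that the coupling was weak. At such depth a correlation this small is no finding.

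**Figure D3:**
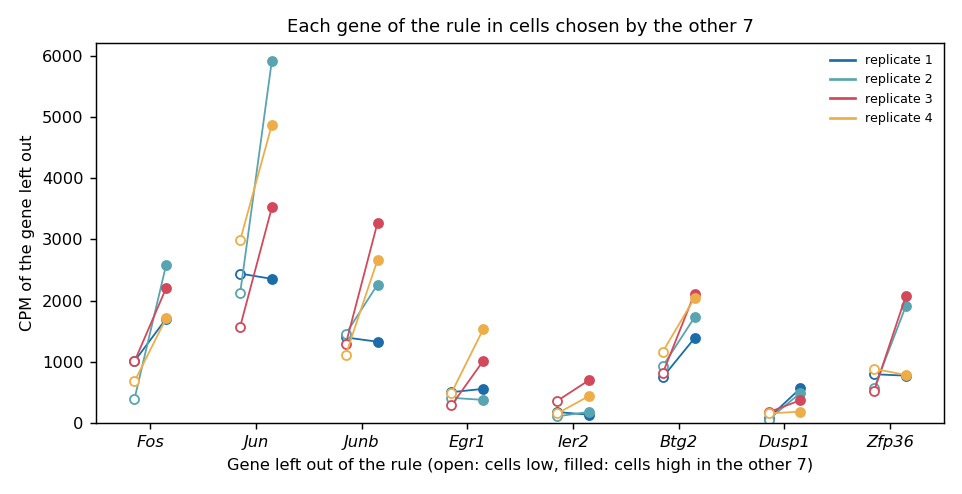
CPM of each of the 8 genes in adult cells chosen by the other 7, open circles for cells low and filled circles for cells high in those 7, 1 colour per library. Fos, Btg2 and Dusp1 are higher in cells high for the other 7 in all 4 libraries, Zfp36 in 2 of 4.

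The median number of UMIs per cell was 577, 535, 540 and 572 in the members of replicates 1 to 4, against 608, 583, 597 and 586 in the reference, a mean difference of -37.5 ± 18.7 (SD, n = 4). The library medians of genes detected per cell averaged 369 in members and 386 in reference cells. The rule used the UMIs of a cell, as a minimum and as the denominator of the share, so both differences carry no test, and among cells with at least 600 UMIs they were 5 UMIs and 2.125 genes, with the opposite sign. Thinned to 400 UMIs, the library medians of genes per cell averaged 287 in both classes. The sign of their difference was split over the libraries, 2 against 2 (two-sided exact permutation p = 0.875, where 4 pairs allow no p below 0.13). These gene counts include the 8 genes of the rule. Before thinning, members held a median of 4 of those genes and reference cells 2, so this test was not free of the rule. The only mitochondrial row of the table, mt-Nd4, held 0 UMIs in these cells, so no mitochondrial share could be compared.

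Outside the 8 genes, few rows were called between members and reference cells. Of 434 gene rows with enough UMIs to test, 2 passed edgeR's quasi-likelihood test with Benjamini-Hochberg adjustment (0.461%), both higher in members: the nuclear long noncoding RNA Malat1 and Ptpn1, which encodes the tyrosine phosphatase PTP1B. No row was called lower; 13 rows in each direction had an unadjusted p under 0.05, and DESeq2 called 1 row, Malat1. The median log2 difference over all tested rows was -0.01, with a median standard error of 0.32. The table holds 27297 gene rows, so most could not be tested. At this depth, few calls do not show that the RNA of members and reference cells was alike. Intermediate cells against reference gave 0 calls among the 434 rows by edgeR and by DESeq2, with 12 rows higher and 11 lower at an unadjusted p under 0.05 in edgeR.

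Malat1 stood at 1519, 2513, 4755 and 4801 CPM in the members of replicates 1 to 4 and at 1104, 1049, 1700 and 3892 CPM in their reference cells. It was higher in members in 4 of 4 libraries, while the 2 groups overlapped because the level differed widely between libraries. The log2 difference was 0.86 (SE 0.15, edgeR adjusted p = 2.81e-06). On the log2 CPM scale it was 0.46, 1.26, 1.48 and 0.30 in replicates 1 to 4. The plate of replicates 1 and 2 averaged 0.86 and that of replicates 3 and 4 averaged 0.89, each mean over unlike libraries. Intermediate cells lay between on average, at a log2 difference of 0.48 from the reference. The call rested on modelling the library: without the library term the log2 difference was 0.92 with an adjusted p of 0.845. It also missed the threshold without replicate 3 (log2 0.56, adjusted p = 0.373), after thinning to 400 UMIs (0.68, adjusted p = 0.18), with at least 600 UMIs (1.29, adjusted p = 0.657) and with no expression filter (0.63, adjusted p = 0.682).

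Ptpn1 stood at 759, 486, 631 and 503 CPM in members and at 210, 315, 283 and 104 CPM in reference cells. Every member sum lay above every reference sum. The log2 difference was 1.37 (SE 0.36, edgeR adjusted p = 0.0335), and intermediate cells differed from the reference by 1.07. This call was close to its limit: it was lost without any 1 of the 4 libraries (adjusted p from 0.0998 to 0.377), and under DESeq2 (adjusted p = 0.564), with log2 differences of 1.07 to 1.58 over all alternatives that tested it.

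**Figure D4:**
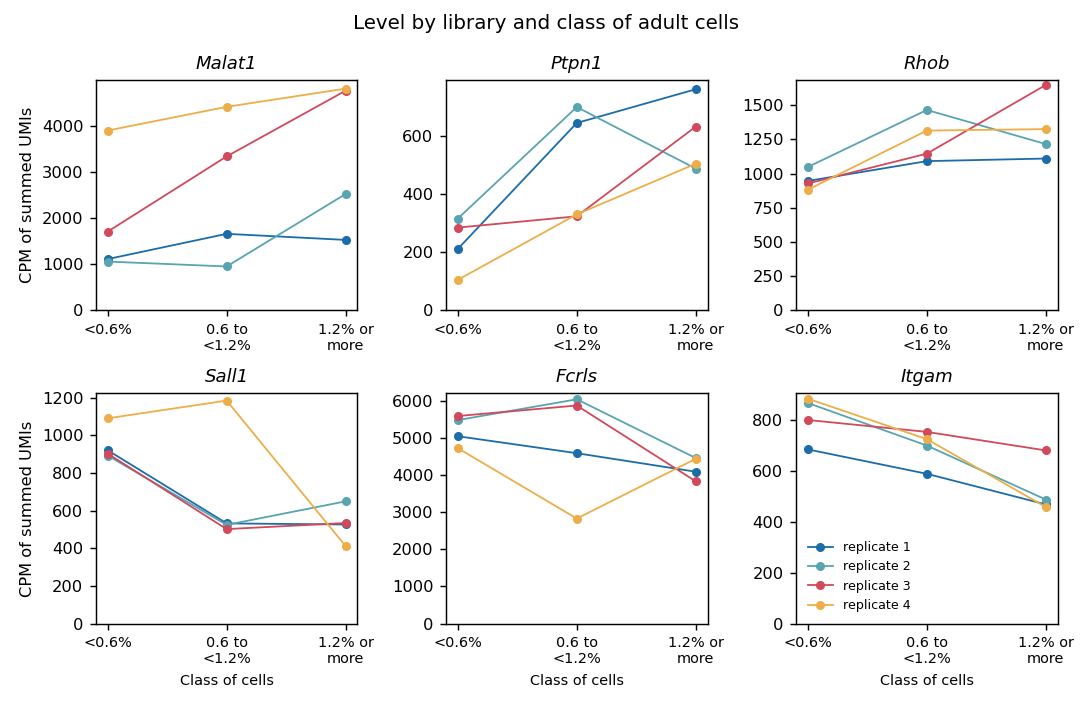
CPM of summed UMIs in reference cells (under 0.6%), intermediate cells and members (1.2% or more) for Malat1, Ptpn1, Rhob, Sall1, Fcrls and Itgam, 1 line per adult library, each axis from 0. Malat1 and Ptpn1 are higher in members in 4 of 4 libraries and passed the test; Rhob is higher, and Sall1, Fcrls and Itgam lower, in 4 of 4 libraries without passing it.

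The next rows by unadjusted p did not pass and are given as values. On the higher side, Ralb (a Ras-like GTPase) had a log2 difference of 1.5 (SE 0.49, adjusted p = 0.341), with 292, 567.5, 728 and 274 CPM in members against 105, 184, 283 and 52 CPM. The lipid carrier gene Apoe had 0.55, Gnas (the stimulatory G protein alpha subunit) 0.52 and Ntpcr (a nucleoside triphosphatase) 0.72, each with an edgeR adjusted p of 0.556. On the lower side, Sall1, a transcription factor that marks microglia, read 525.8, 649, 534 and 412 CPM in members and 920, 891, 902 and 1090 CPM in reference cells, groups that did not overlap (log2 -0.90, SE 0.31, adjusted p = 0.446). Fcrls, an Fc receptor-like surface protein, read 4090, 4459, 3833 and 4435 CPM against 5045, 5480, 5590 and 4722 CPM, again without overlap (log2 -0.29, SE 0.11, adjusted p = 0.556). C1qc, a chain of complement C1q, did not overlap either (log2 -0.22). Ctss (cathepsin S, log2 -0.48) and Tyrobp (the signalling adaptor of TREM2, -0.40) overlapped. Groups that do not overlap were found for 17 of the 434 rows, or 3.92%, whatever the gene.

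Other immediate-early transcription factors were mostly too sparse to test. Of 31 rows on this list, 20 had an adult UMI and 2 were tested, Jund (another AP-1 subunit, log2 0.42) and Atf4 (a stress-response factor, -0.30), and neither passed. Their summed level was 2571, 1946, 2280 and 2835 CPM in members against 1918, 1862, 2138 and 1920 CPM, higher within 4 of 4 libraries, with ranges that overlap.

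Feedback and stress regulators, a mixed list that is not confined to genes limiting the AP-1 genes, had 8 tested rows of 40 and 0 calls (0.461% over all tested rows). Of these 8, 7 had a difference above 0, against 215 of all 434, and their median log2 was 0.28 against -0.01 over all tested rows. Their summed level was 9873, 9405, 9607 and 8550 CPM in members and 7173, 8023, 7574 and 7524 CPM in reference cells, without overlap. Single tested rows did not overlap in 3.92%, a share that was not computed for sums over many rows. Rhob, a small GTPase, read 1110, 1216, 1650 and 1326 CPM against 946, 1049, 927 and 882 CPM (log2 0.49, SE 0.23, adjusted p = 0.678). Rgs2, an inhibitor of G protein signalling, had 0.14, and Txnip, an inhibitor of thioredoxin, -0.20.

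Some genes of these lists had too few UMIs for the test, and those named next were chosen after their values were seen. Over all lists apart from cell type markers, 147 untested rows had 10 or more UMIs in members and reference together, and the exact 95% interval of the rate ratio, which covers counting error only, lay above 1 for 10 of them and below 1 for 4. Btg1, a relative of Btg2, had 38 UMIs in members and 24 in reference cells, a ratio of 2.96 (1.73 to 5.15), and was higher in 4 of 4 libraries. Fosb, which encodes an AP-1 subunit related to Fos, had 12 and 3 UMIs, a ratio of 7.47 (2.02 to 41.2), and was higher in 4 of 4. With the expression filter lowered to a minimum count of 3, Btg1 was tested and did not pass (log2 1.51, SE 0.43, edgeR adjusted p = 0.231).

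Chemokine and cytokine genes, a group often induced with the AP-1 genes in activated microglia, had 2 tested rows of 27 and 0 calls. They were Tgfb1 (log2 0.38) and Cd14 (the lipopolysaccharide co-receptor, 0.06). The list's sum was 2454, 5270, 2426 and 2835 CPM in members against 2312, 2569, 3169 and 2439 CPM, with the highest value in the members of replicate 2. Ccl3, a chemokine, had 12 UMIs in members and 9 in reference cells, a ratio of 2.49 (0.963 to 6.69). Ccl4, a related chemokine, had 11 and 4, a ratio of 5.13 (1.52 to 22.1), with 9 of the 11 in replicate 2 and higher values in 2 of 4 libraries. Chaperones and heat shock proteins had 7 tested rows with 0 calls and 6 of 7 below 0 (median log2 -0.12), among them Calr at -0.00 and Hsp90ab1 at -0.05. Interferon response genes had 0 of 20 rows tested.

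Members were microglia by their markers. All 12 microglia markers were detected, with a summed level of 43057, 43376, 41968 and 41790 CPM in members and 45349, 49056, 48945 and 47997 CPM in reference cells. The members' sums were lower in 4 of 4 libraries and did not overlap with the reference. Of the 10 tested markers 0 were called and 9 were below 0, with a median log2 of -0.17. Csf1r, the growth factor receptor on which microglia depend, was at 11150 CPM ± 490 in members and 11541 ± 633 in reference cells (SD, n = 4), a log2 difference of -0.05, and Tmem119 at -0.15. Of single tested rows, 8.06% were lower in all 4 libraries, a share that was not computed for sums.

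The next 4 lists share genes with these markers and with each other, and 0 of their rows were called; over all 434 tested rows, 219 were below 0. Homeostatic microglia genes had 32 tested rows, 20 of them below 0 (median log2 -0.11), and the cystatin gene Cst3, the most abundant, was at 0.01. Microglia and macrophage transcription factors had 8 tested rows and a median of -0.27, with Sall1 at -0.90 and Irf8 at -0.50. Complement had 4 tested rows, all below 0: C1qa -0.06, C1qb -0.18, C1qc -0.22 and Itgam -0.60. Lysosome and cathepsin genes had 18 tested rows, 13 below 0 (median -0.14), and a sum of 62569, 62591, 58949 and 62091 CPM in members against 67236, 66020, 68600 and 70154 CPM, without overlap. Single tested rows did not overlap in 3.92%, a share that was not computed for sums. CPM values are shares of a cell's remaining UMIs, so the sums of different lists are not independent.

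Sort genes were checked because the gate could select them. Itgam, which encodes CD11b, read 467, 486, 679 and 457 CPM in members and 683, 865, 799 and 882 CPM in reference cells, without overlap but short of the test (log2 -0.60, SE 0.32, adjusted p = 0.698). Cx3cr1 had a log2 difference of -0.35 (SE 0.44, adjusted p = 0.813). Ptprc, which encodes CD45, was too sparse to test, at 0 to 91.4 CPM in members and 26.2 to 105 CPM in reference cells.

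**Figure D5:**
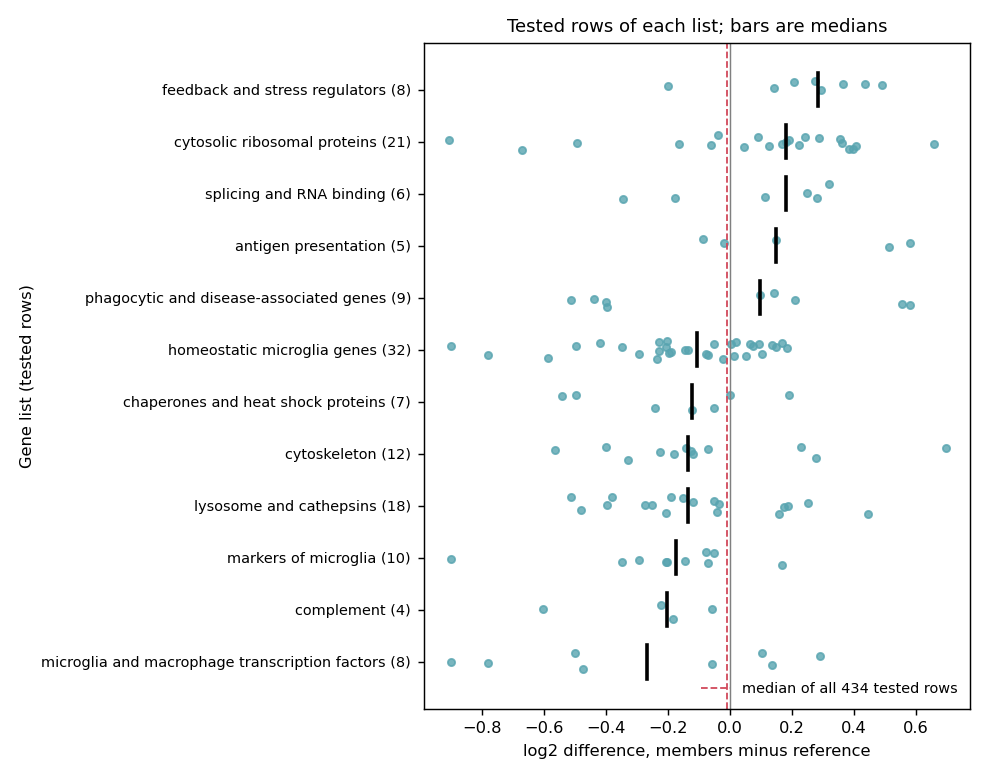
Log2 difference of members minus reference for every tested row of the lists with at least 4 tested rows; points are rows, black bars list medians, and the dashed line the median of all 434 tested rows (-0.01). Feedback and stress regulators have the highest median (0.28) and microglia and macrophage transcription factors the lowest (-0.27).

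Among the remaining lists, cytosolic ribosomal proteins had 15 of 21 tested rows above 0 (median log2 0.18, 0 called). Their sum was 21348 to 28919 CPM in members and 19784 to 26376 CPM in reference cells, higher within 4 of 4 libraries. Of single tested rows, 7.37% were higher in all 4, a share that was not computed for sums. Ribosomal protein genes have near-identical copies in the genome, among which reads may be split. Splicing and RNA-binding genes had 4 of 6 above 0 (median 0.18), phagocytic and disease-associated genes 5 of 9 (0.10) and antigen presentation 3 of 5 (0.15). The cytoskeleton list had 3 of 12 above 0 (-0.13, with Actb at -0.13). Replication and mitosis genes had 1 tested row, Tuba1b at -0.12, and the list's sum was 1417 to 2523 CPM in members and 1660 to 2679 CPM in reference cells. None of these lists held a call.

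Markers of other cell types were mostly at or near 0. T and NK cell markers were at 0 UMIs in both classes, endothelial markers at 0 in members and 4 UMIs in the reference, and neuron markers at 2 UMIs in each. Oligodendrocyte markers summed to 49 to 243 CPM in members and 52 to 342 CPM in reference cells, astrocyte markers to 97 to 183 and 104 to 180 CPM, and border macrophage markers to 324 to 1006 and 499 to 1038 CPM, with 9 and 7 of 12 rows at 0. Some marker RNA followed the library instead. Of the neutrophil markers, 3 of 8 rows were seen, chiefly Mpo and Elane, and their sums were 2395, 2676, 243 and 549 CPM in members and 2128, 1809, 103 and 467 CPM in reference cells, higher in members in 4 of 4. Ly6c2, a monocyte marker, was at 2086 CPM in members and 2112 CPM in reference cells of replicate 3 and at 0 to 52 CPM in both classes of the other libraries, while Ccr2 was at 0 throughout. Erythroid markers gave 5 UMIs in members, all Hba-a2 in replicate 3, and 0 in reference cells. The part of these markers in the results was not tested.

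Cells taken by the same rule at E18.5 shared the Malat1 difference. They were only 6 to 14 cells per library, so the CPM values of E18.5 members rest on few UMIs. Against E18.5 reference cells, 10 of 538 tested rows were called (1.86%), 5 (0.929%) in each direction, and Malat1 had a log2 difference of 0.78 (edgeR adjusted p = 3.13e-09), with 5822, 3378, 5743, 10533, 8456 and 4267 CPM against 3070, 2933, 4168, 4104, 4414 and 3020 CPM. Its difference between the ages was 0.12 (adjusted p = 0.896). Ptpn1 had 0.75 at E18.5 and did not pass there (adjusted p = 0.308), and the ages differed by 0.65 (adjusted p = 0.67). Ier5 and Dusp6, of the list of feedback and stress regulators, were called at E18.5 with 1.46 and 1.03 and had 0.44 and 0.27 in adult cells.

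The difference between the ages was itself called for 1 of 538 rows (0.186%), the ribosomal protein gene Rps15, which lies outside the rule for named genes and is named because it is the only call. Members minus reference cells gave a log2 value of 0.66 in adults (adjusted p = 0.477) and -0.57 at E18.5 (adjusted p = 0.0571), and the ages differed by 1.25 (SE 0.28, edgeR adjusted p = 0.0043). At E18.5, Rps15 read 542, 2196, 2538, 2385, 1198 and 1778 CPM in members against 2097 to 2738 CPM in reference cells. These member values come from 6 to 14 cells per library. Without E18.5 replicate 1, the lowest of these, the ages differed by 1.02 and the call was lost (adjusted p = 0.0522), as it was without adult replicate 1 (1.04, adjusted p = 0.16). Tmem119, the microglial surface marker, was higher in members at E18.5 (log2 0.63, adjusted p = 0.0182) and at -0.15 in adults, and the difference between the ages fell just short of the threshold (-0.75, adjusted p = 0.0509). For Sall1, at 0.45 (SE 0.35) in E18.5 members and -0.90 (SE 0.31) in adult members, it did not pass (-1.33, adjusted p = 0.362).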

How the data were processed

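Single-cell 3' libraries were made with MARS-seq and assigned to the mm9 genome after demultiplexing with bcl2fastq 2.15.0.4, per the submitters' processing notes. No label or header names the aligner. The authors deposited 1 table of UMI counts, whole numbers for 27297 gene rows by well, with 0 spike-in rows, and a table of wells that ties each to its library. Members and gene lists were chosen with earlier results of these data known. Adult libraries held 56959 to 91642 UMIs in kept cells. UMIs were summed per library and class (members 12334 to 21871, reference 19272 to 38819), and edgeR 4.0.16 (R 4.3.3; TMM, filterByExpr with a minimum count of 10, robust quasi-likelihood fit, 6 residual degrees of freedom) was fitted to members, intermediate and reference cells with the library as a block, since classes of 1 library share its preparation. Rows under an adjusted p of 0.05 were called. The E18.5 comparison used 1 joint fit of both ages with 16 residual degrees of freedom.

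Rows joining several genes were kept whole. The text names up to 12 called genes per direction, or the 6 with the smallest unadjusted p in a direction where fewer than 6 were called, called members and up to 3 of the most abundant others of each list, and the sort genes; ribosomal and multi-symbol rows stay out of the first 2 kinds, and some genes that this rule names are not reported here. Pairs of adult libraries differed beyond sampling noise (chi-square per degree of freedom 2.04 to 2.50), so none were merged as 1 library. They reuse 192 well barcodes but share 0 pairs of pool and well barcode, and doublets were not called, since wells were sorted with 1 cell. The 8 empty adult wells held at most 29 UMIs each. Alternatives were DESeq2 1.42.0, other scaling, filters and limits of the rule, thinning, no library block, and leaving out each adult library.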

Additional observations from a re-analysis of the deposited data

Results flagged for a closer look

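The check covered 108 groups of 4 to 6 libraries: shares of members, levels of some of the named genes, list sums and per-cell totals. In 9 of them the highest or lowest library was farther from the rest than Dixon's 95% limit, where chance gives about 1 in 20. That rate is only a rough guide here, since lists share genes and some sums rest on few UMIs. For Sall1 the highest library stood apart in intermediate cells (1184 CPM, next 532) and in reference cells (1090 CPM, next 920), replicate 4 in both. Itgam was highest in the members of replicate 3 (679 CPM, next 486). Monocyte markers stood apart in replicate 3 in members (2135 CPM, next 234) and in reference cells (2112 CPM, next 78.8), nearly all of it Ly6c2. The B cell marker sum of members was 45.7 CPM in replicate 4 and 0 elsewhere, and the erythroid sum 243 CPM in replicate 3 and 0 elsewhere. The first was a single UMI, against 8 B cell marker UMIs in reference cells, and the second was 5 UMIs. Chemokine and cytokine genes summed to 5270 CPM in the members of replicate 2 (next 2835), and lysosome and cathepsin genes to 58949 CPM in those of replicate 3 (next 62091).

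Rps15 differed between the ages by the test of the difference itself, at a log2 value of 1.25 (edgeR adjusted p = 0.0043). E18.5 members of replicate 1, 10 cells, read 542 CPM. Without that library the value was 1.02 (adjusted p = 0.0522), and without adult replicate 1 it was 1.04 (adjusted p = 0.16).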

How the results depend on the processing

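The adult comparison gave 2 calls, and again 2 with RLE size factors, with members at 1.0% or more and with the 8 genes kept in library sizes. It gave 1 call, Malat1, under DESeq2, members and reference only, members at 1.5% or more, reference below 0.4%, at least 300 UMIs, and a minimum count of 3 (chosen after seeing the data). It gave 0 with no expression filter, at least 600 UMIs, thinning to 400 UMIs, and no replicate block, and 0 to 1 when a library was left out (0 without replicate 3). Fewer rows were tested with at least 600 UMIs (183) and after thinning (228); otherwise the cause was not tested. Malat1 kept its sign in 17 of 17 alternatives (log2 0.56 to 1.29, adjusted p from 1.57e-08 to 0.845) and Ptpn1 in 15 of 15 that tested it (adjusted p from 0.0241 to 1), and 5 and 12 of these lost the call. Ralb, Apoe, Gnas, Ntpcr, Sall1, Fcrls, Ctss, C1qc, Tyrobp, Rhob, Itgam, Cx3cr1, Jund, Atf4, Tgfb1, Irf8, C1qb, Tuba1b, Ier5, Dusp6 and Rps15 kept their sign in the adult comparison and did not pass in any alternative that tested them.

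Other named genes with small adult differences changed sign, and none passed in any alternative. With at least 600 UMIs the log2 difference was 0.032 for Txnip, 0.13 for Calr, 0.21 for Hsp90ab1, 0.014 for Csf1r, 0.037 for Tmem119, -0.012 for Cst3 and 0.093 for Actb. With no expression filter it was -0.13 for Rgs2, -0.18 for Cd14 and -0.25 for Cst3. After thinning it was 0.0014 for Hsp90ab1 and 0.018 for Csf1r. At a minimum count of 3 it was -0.0070 for Cd14 and -0.063 for Cst3, and with at least 300 UMIs -0.17 and -0.016. With members at 1.5% or more it was -0.087 for Cd14 and 0.094 for Calr, and at 1.0% or more 0.0018 for Hsp90ab1. Calr was at 0.022 with RLE size factors, 0.019 under DESeq2, 0.017 with no replicate block, 0.00072 with members and reference only, 0.12 with reference below 0.4% and 0.025 with the 8 genes in library sizes, and Cst3 at -0.0059 with no replicate block. Leaving out a library gave -0.16 to 0.43 for Rgs2, -0.13 to 0.38 for Cd14, -0.063 to 0.085 for Calr, -0.31 to 0.23 for Hsp90ab1, -0.040 to 0.080 for Cst3 and -0.10 to 0.0076 for C1qa.

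Intermediate cells gave 0 calls in all 16 alternatives.

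The difference between the ages gave 1 call, 3 with RLE size factors, 19 with no expression filter, 2 under DESeq2, and 0 with thinning and with no replicate block. Leaving out an adult or, chosen after seeing the data, an E18.5 library gave 0 to 3. Rps15 was not called without adult replicate 1, without E18.5 replicate 1, after thinning or with no replicate block. Tmem119 passed in some alternatives (adjusted p from 0.00714 to 1), and so did Gpr84. For Malat1 the difference between the ages changed sign when adult replicate 3 (-0.12) or E18.5 replicate 2 (-0.01) was left out, with leave-one-out values of -0.12 to 0.35.

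The mean share of members was 34.4% with members at 1.0% or more, 15.3% at 1.5% or more, and 20.8% to 27.5% without 1 library. With at least 600 UMIs the members' difference in UMIs became 5, in genes 2.125, and in genes at 400 UMIs -1.125; the last was -0.83 to 1.67 without 1 library, with -0.83 without replicate 1 and -0.5 without replicate 3. UMIs per spike-in UMI were planned and not run, since the table used here has 0 spike-in rows. Depth limits all of this: member sums of 12334 to 21871 UMIs left 434 rows to test.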

Other observations

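Some sparse genes outside the AP-1 family had a rate ratio of members to reference whose exact 95% interval, for counting error only, did not hold 1. They were chosen after their values were seen and none passed where a minimum count of 3 let them be tested. Tra2b, a regulator of alternative splicing, had 22 UMIs in members and 16 in reference cells, a ratio of 2.57 (1.29 to 5.23), and Srsf7, another splicing factor, 18 and 7, a ratio of 4.80 (1.91 to 13.6), each higher in 4 of 4 libraries. Bag3, a co-chaperone, had 10 and 5 (ratio 3.73, 1.16 to 13.9, higher in 4 of 4), and the clock gene Per1 9 and 5 (3.36, 1.01 to 12.8, higher in 3 of 4). On the other side, Atp5e, a subunit of ATP synthase, had 5 and 28 (ratio 0.333, 0.101 to 0.874, lower in 4 of 4), Atp5b, another subunit, 13 and 47 (0.516, 0.256 to 0.970, lower in 3 of 4), and Sdhb, of respiratory complex II, 11 and 41 (0.501, 0.232 to 0.992, lower in 3 of 4). The nuclear respiratory chain list, which holds Atp5b, had 2 tested rows, 1 above and 1 below 0 (median log2 0.0015, 0 called). Its sum was 2979 to 4459 CPM in members and 3736 to 4457 CPM in reference cells, higher in members in 1 of 4 libraries. Other sparse genes of that list had ratios above 1, among them Uqcrq (1.52, 0.671 to 3.36) and Atp5a1 (1.23, 0.711 to 2.09). The chemokine Ccl6 had 13 and 46 (0.528, 0.262 to 0.993, lower in 4 of 4).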
